A study of Homo sapiens with 42 samples.

Results

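The EGF receptor, its ligands and the receptor's inhibitor form a set of 9 genes among the 60609 genes counted in 42 polyA RNA-seq libraries of 786-O cells. They were chosen by name and not ranked by their values, but with earlier results of these data known. The ligands are TGFA, AREG, EREG, HBEGF and BTC, the receptors are EGFR, ERBB2 and ERBB3, and ERRFI1 encodes MIG6, a feedback inhibitor that binds the kinase domain of EGFR. All 9 passed the filter on low counts in both batches.

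The 786-O line comes from a clear cell renal cell carcinoma (ccRCC) that has lost VHL, so that HIF-2α (the product of EPAS1) is stable in normal oxygen, and it makes no functional HIF-1α. All groups share this background, endogenous HIF-2α included. Batch 1 held 27 libraries, 3 from each of 9 groups. These were WT cells, 2 lines in which the endogenous HIF-1β or HIF-2α carries V5 and HaloTag at its N-terminus (HIF-1β KIN, clone A21, and HIF-2α KIN, clone A31, each a single clone), and 6 stable lines in which the weak L30 promoter drives a V5-Halo-tagged protein. The exogenous proteins of batch 1 were HIF-1α, HIF-1α R30E (a mutation in the DNA-binding domain), HIF-1αDM (the dimerization mutant, R170A and V191D), HIF-2α, HIF-2α R27E (DNA-binding domain) and HIF-2αDM (dimerization mutant, R171A and V192D). Batch 2 held 15 libraries, 3 each from WT cells and from L30 lines with HIF-1α, HIF-2α and 2 chimeras. HIF-2α/1α joins residues 1 to 365 of HIF-2α, which hold its structured domains, to residues 364 to 826 of HIF-1α, mostly an intrinsically disordered region (IDR). HIF-1α/2α is the reverse exchange, residues 1 to 363 of HIF-1α followed by residues 366 to 870 of HIF-2α. RNA extraction and library kits differed between the batches, so that levels are compared only within a batch.

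TGF-α, amphiregulin, epiregulin, HB-EGF and betacellulin are made as membrane-bound precursors, are released by metalloproteases, and bind EGFR, which pairs with itself or with ERBB2 or ERBB3 and signals through the RAS-MAPK and PI3K pathways. TGFA is a known HIF-2α target in VHL-deficient renal carcinoma, where it can act on the cell that secretes it, and the comparison of interest is whether the other ligands and the receptors follow it. HIF dimers bind DNA at the hypoxia response element, whose core reads ACGTG or GCGTG.

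Promoter sequence was available in RefSeq for 8 of the 9 genes, and ERBB3 was not in the table. Those of TGFA, EGFR and ERRFI1 are shown as the genes that were higher with HIF-2α, and those of AREG and EREG as the ligands that were lower. Each line gives 250 bases immediately upstream of the annotated start on GRCh38.p14, in the gene's own direction, with ACGTG or GCGTG on either strand in capitals. For TGFA the line is that of its second annotated start, and for EGFR that of its first.
TGFA (chr2:70553447-70553696, minus strand): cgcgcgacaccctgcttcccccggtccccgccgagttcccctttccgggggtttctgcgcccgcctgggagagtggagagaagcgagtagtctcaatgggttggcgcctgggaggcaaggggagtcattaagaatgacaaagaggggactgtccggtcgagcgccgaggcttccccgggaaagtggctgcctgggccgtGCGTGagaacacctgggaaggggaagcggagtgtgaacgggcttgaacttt
EGFR (chr7:55018767-55019016, plus strand): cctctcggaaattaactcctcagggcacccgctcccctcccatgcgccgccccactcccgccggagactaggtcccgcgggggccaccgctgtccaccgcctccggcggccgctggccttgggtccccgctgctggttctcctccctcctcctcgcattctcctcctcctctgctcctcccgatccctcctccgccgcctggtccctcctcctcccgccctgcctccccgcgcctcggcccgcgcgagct
ERRFI1 (chr1:8026310-8026559, minus strand): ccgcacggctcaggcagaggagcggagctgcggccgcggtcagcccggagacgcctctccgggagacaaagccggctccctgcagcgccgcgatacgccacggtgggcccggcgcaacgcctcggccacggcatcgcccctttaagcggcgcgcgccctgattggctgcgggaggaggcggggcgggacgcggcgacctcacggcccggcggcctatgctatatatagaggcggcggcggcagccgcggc
AREG (chr4:74444886-74445135, plus strand): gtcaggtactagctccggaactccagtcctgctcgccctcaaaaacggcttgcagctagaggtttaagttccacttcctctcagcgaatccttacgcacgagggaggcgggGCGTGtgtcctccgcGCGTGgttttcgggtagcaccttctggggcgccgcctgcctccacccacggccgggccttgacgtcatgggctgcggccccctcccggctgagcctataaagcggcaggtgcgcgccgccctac
EREG (chr4:74364895-74365144, plus strand): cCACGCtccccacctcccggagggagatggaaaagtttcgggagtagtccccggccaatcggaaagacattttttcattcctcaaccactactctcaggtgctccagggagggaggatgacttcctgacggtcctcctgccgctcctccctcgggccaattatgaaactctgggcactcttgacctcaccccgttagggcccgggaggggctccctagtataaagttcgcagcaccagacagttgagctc
The letters of the core were present in the windows of AREG and EREG and absent from those of EGFR, at each of its 2 starts, and of ERRFI1. TGFA had 1 match, 51 bases before the second of its annotated starts, and none at its first start. AREG had 2 matches, at 139 and 124 bases before its start, and EREG had 1 at 249 bases before its start, read on the opposite strand, and another at position 39 after it, in the context gacacagccaACGTGgggtccc. HBEGF had 1 match after its start, at position 26, BTC had 1 at 94 bases before it, and ERBB2 had none. Of 35116 human promoter windows of 300 bases (250 before and 50 after the start), 48.4% held at least 1 match, so that presence or absence at these genes is a description only.

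EREG, AREG and BTC lie together on chromosome 4, in hg38 coordinates of GENCODE 44. EREG occupies chr4:74365145-74388749 on the plus strand, AREG begins 56.4 kb further on at chr4:74445136-74455005, plus strand, and BTC lies 289.8 kb beyond it at chr4:74744759-74794523 on the minus strand. TGFA is at chr2:70447284-70554193 (minus), HBEGF at chr5:140332843-140346603 (minus), EGFR at chr7:55019017-55211628 (plus), ERBB2 at chr17:39687914-39730426 (plus), ERBB3 at chr12:56076799-56103505 (plus) and ERRFI1 at chr1:8004404-8026309 (minus). Counting ignored strand, so reads cannot be assigned to 1 gene where exons of opposite strands overlap. Genes on the other strand overlap EGFR (EGFR-AS1), ERBB2 (PGAP3 and MIEN1) and ERRFI1 (a long non-coding RNA). On the same strand TGFA overlaps TGFA-IT1, ERBB2 overlaps MIR4728 and ERBB3 overlaps a protein-coding gene, with the same limit.

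The libraries held 42377599 to 101186554 counted reads in batch 1 and 76366799 to 109642159 in batch 2. EPAS1, HIF1A and ARNT (HIF-1β) checked the labels. EPAS1 reached 44694 ± 6296 (SD, n = 3) normalized counts in the HIF-2α line of batch 1, 56676 ± 10267 with HIF-2α R27E and 48666 ± 5292 with HIF-2αDM, against 14498 ± 2021 in WT cells, and HIF1A reached 2249 to 3038 group means in the 3 HIF-1α lines against 242 ± 13.5. One genotype label of the HIF-2αDM libraries names HIF-1α, but their HIF1A level was 193 ± 15.0. HIF1A was also above WT in the HIF-2α lines, at 910 ± 280 in batch 1 and 936 ± 144 in batch 2. EPAS1 was above WT in the HIF-1α lines, at 22951 ± 2617 in batch 1 (edgeR log2 0.66 ± 0.20 SE, adjusted p = 0.0350). In batch 2 EPAS1 had 16360 ± 1137 with HIF-1α against 12621 ± 820 in WT (0.37 ± 0.06, adjusted p = 6.29e-07). With HIF-1α it was also higher than with R30E (log2 1.15) and HIF-1αDM (1.00), and its part in the HIF-1α results was not tested. EPAS1 in the HIF-2α KIN clone was lower than in WT, at 6177 ± 497 (log2 change -1.23 ± 0.20 SE, adjusted p = 0.000101). The renal epithelial or ccRCC markers PAX8, PAX2, KRT8, KRT18 and VIM were above 3 counts in all 42 libraries, and CA9 was at or under 3 counts in 23. PTPRC, CD68, PECAM1, VWF, ALB and HBB never exceeded 0.241 CPM.

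In WT cells the set was unevenly expressed. Per length of exon (RPKM, on the summed exons of GENCODE 44), the highest levels in batch 1 were those of ERRFI1 (29.0 ± 3.40, SD, n = 3), TGFA (28.8 ± 1.51) and EREG (26.2 ± 1.00). EREG therefore stood beside TGFA as a main ligand transcript. HBEGF followed at 13.9 ± 2.46, ERBB2 at 11.2 ± 1.42, EGFR at 10.5 ± 0.350 and AREG at 5.20 ± 0.272. BTC, at 0.108 ± 0.0875, was supported by only 5 to 42 reads per WT library, and ERBB3 by 1 to 8. In batch 2 EREG was the highest ligand per length, at 43.9 ± 5.61 against 35.0 ± 1.14 for TGFA, with non-overlapping libraries, while ERRFI1 reached 70.4 ± 2.68.

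HIF-2α raised TGFA, EGFR and ERRFI1 and lowered EREG and AREG in both batches. The remaining ligands, HBEGF and BTC, and the co-receptors ERBB2 and ERBB3 did not meet the 2 criteria for a call, an adjusted p not above 0.01 and a change of 2-fold or more. In each batch 5 of the 9 genes were called, where 5.72% of all genes tested were called in batch 1 and 7.58% in batch 2. Across the 9 genes the median log2 change was 0.79 in batch 1 and 0.69 in batch 2, against -0.09 and 0.07 over all genes tested, and it describes no common direction. A library's normalized count is a share of its RNA, so more RNA per cell and more cells expressing a gene cannot be told apart.

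TGFA had 8996, 9993 and 9496 normalized counts in the WT libraries of batch 1 and 61067, 64782 and 49582 in the HIF-2α libraries. In batch 2 it had 15002, 15264 and 15975 in WT and 86179, 89551 and 80467 with HIF-2α. Every HIF-2α library was far above every WT library. The increase was 6.16-fold in batch 1 (log2 2.62 ± 0.17 SE, adjusted p = 1.57e-11) and 5.54-fold in batch 2 (2.47 ± 0.06, adjusted p = 2.79e-32).

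EGFR, the receptor that TGF-α binds, had 11370, 11499 and 10795 normalized counts in WT and 40613, 38789 and 37436 with HIF-2α in batch 1. It had 20824, 21049 and 20912 in WT and 52682, 57810 and 54487 with HIF-2α in batch 2. No HIF-2α library overlapped WT, and the rise was 3.47-fold in batch 1 (log2 1.80 ± 0.16, adjusted p = 5.23e-09) and 2.63-fold in batch 2 (1.39 ± 0.06, adjusted p = 4.77e-23). ERBB2, the preferred partner of EGFR, was higher than WT in every HIF-2α library of both batches, but by 1.72-fold (log2 0.79 ± 0.19, adjusted p = 0.00416) and 1.62-fold (0.69 ± 0.06, adjusted p = 9.48e-14), under the fold threshold.

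ERRFI1, the inhibitor, had 9174, 7957 and 7295 normalized counts in WT and 29343, 29684 and 23303 with HIF-2α in batch 1. In batch 2 the values were 26567, 25242 and 27211 in WT and 96629, 95207 and 91650 with HIF-2α. The groups did not overlap, and ERRFI1 rose 3.37-fold in batch 1 (log2 1.75 ± 0.18, adjusted p = 6.31e-08) and 3.59-fold in batch 2 (1.84 ± 0.06, adjusted p = 4.23e-27).

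EREG went the other way. It had 9714, 9963 and 10470 normalized counts in WT and 1587, 2281 and 2096 with HIF-2α in batch 1, and 23594, 24559 and 19180 against 1772, 1824 and 2640 in batch 2. AREG had 554, 608 and 557 in WT and 75.8, 142 and 118 with HIF-2α in batch 1, and 950, 1070 and 837 against 62.5, 84.3 and 129 in batch 2. All HIF-2α libraries were below all WT libraries for both ligands. EREG fell 5.05-fold in batch 1 (log2 -2.34 ± 0.20, adjusted p = 2.07e-09) and 10.8-fold in batch 2 (-3.43 ± 0.10, adjusted p = 1.27e-30), and AREG fell 5.10-fold (-2.35 ± 0.22, adjusted p = 1.57e-08) and 10.5-fold (-3.39 ± 0.19, adjusted p = 2.55e-19). HBEGF, which is also an EGFR ligand, had a log2 difference of -0.46 (95% interval -0.95 to 0.03) in batch 1 and -0.04 (-0.27 to 0.19) in batch 2.

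**Figure D1:**
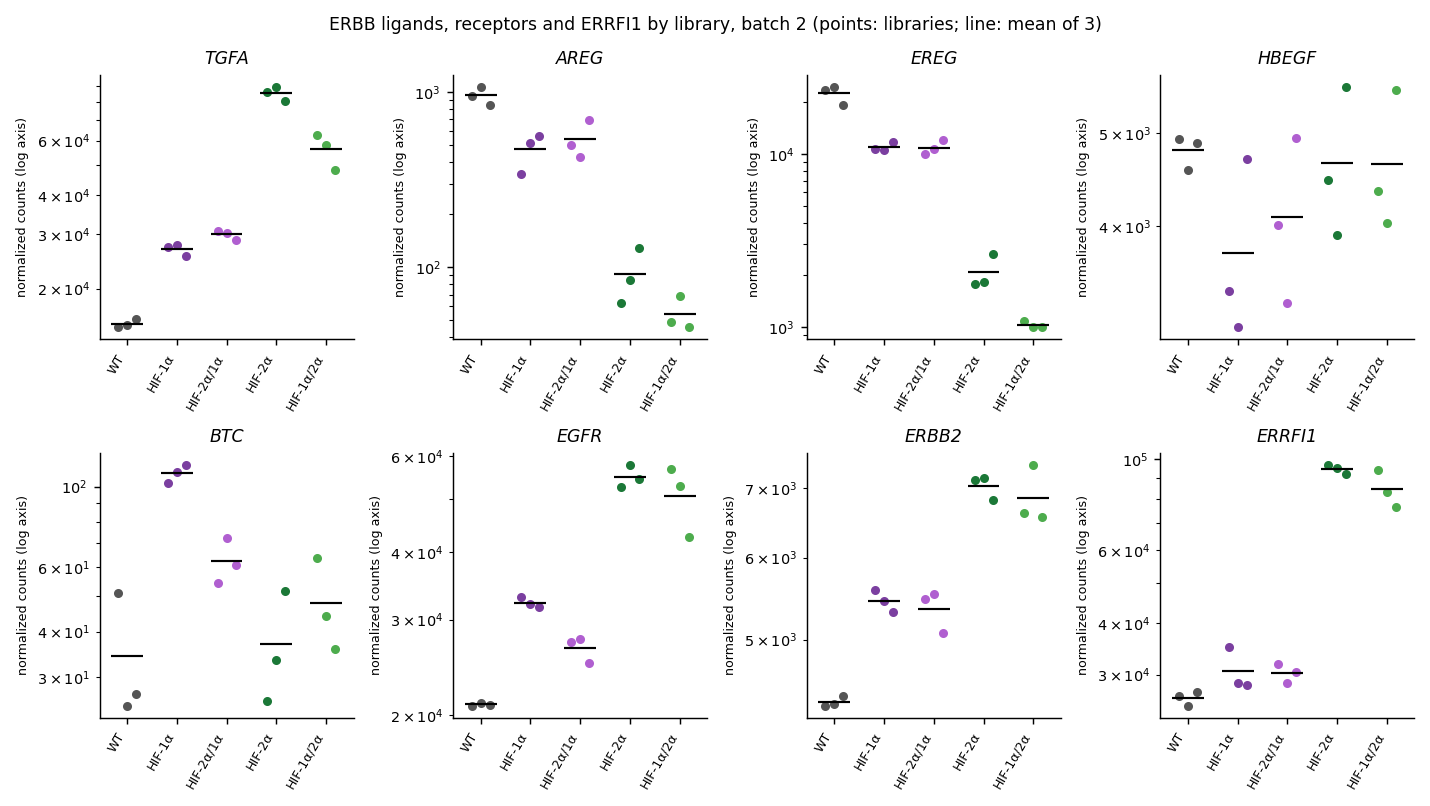
Normalized counts (log axis, range set for each gene) of 8 of the 9 genes in each batch 2 library, with points for the 3 libraries of a group and a line at their mean. Both lines that carry the IDR of HIF-2α had the highest TGFA, EGFR and ERRFI1 and the lowest EREG and AREG; ERBB3, with 1 to 13 reads per library, is left out.

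HIF-1α changed the same ligands less and left ERRFI1 near its WT level. In batch 1 it called 4 of 9 genes (3.79% of all genes were called): BTC was higher, and AREG, EREG and HBEGF were lower. In batch 2 it called 3 of 9 (4.39% of all genes), BTC higher and AREG and EREG lower.

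TGFA with HIF-1α had 15662, 21983 and 15215 normalized counts in batch 1 and 27292, 27658 and 25545 in batch 2. All 6 libraries were above the WT libraries of their batch. The rise was 1.86-fold (log2 0.89 ± 0.16, adjusted p = 0.000429) and 1.74-fold (0.80 ± 0.06, adjusted p = 6.71e-15), past the adjusted p but under the fold threshold. EGFR likewise rose 1.89-fold in batch 1 (0.91 ± 0.16, adjusted p = 0.000214) and 1.54-fold in batch 2 (0.62 ± 0.06, adjusted p = 2.75e-11). Without all libraries numbered 3 of batch 1, both passed the fold threshold there (TGFA log2 1.02, EGFR 1.01). ERRFI1 differed from WT by log2 0.15 (95% interval -0.21 to 0.51) in batch 1 and 0.22 (0.09 to 0.34, adjusted p = 0.00692) in batch 2.

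EREG with HIF-1α had 3603, 4157 and 6329 normalized counts in batch 1 and 10693, 10553 and 11752 in batch 2, below every WT library in each. AREG had 188, 203 and 297 in batch 1 and 340, 512 and 557 in batch 2, again below WT throughout. EREG fell 2.14-fold (log2 -1.10 ± 0.19, adjusted p = 0.000243) and 2.04-fold (-1.03 ± 0.09, adjusted p = 2.69e-13), and AREG fell 2.50-fold (-1.32 ± 0.21, adjusted p = 9.26e-05) and 2.03-fold (-1.02 ± 0.16, adjusted p = 2.50e-06). These folds sit close to the threshold of 2. EREG was no longer called in batch 1 without HIF-1α replicate 1 (log2 -0.94), nor in batch 2 without WT replicate 1 (-0.99) or WT replicate 2 (-0.96), and AREG was lost in batch 2 without WT replicate 2 (-0.93) or HIF-1α replicate 1 (-0.83).

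BTC was the only ligand that was higher with HIF-1α and past both thresholds in both batches, at low counts. It had 34.7, 19.4 and 3.51 normalized counts in WT and 60.4, 118 and 56.5 with HIF-1α in batch 1, and 51.0, 25.1 and 27.1 against 102, 109 and 115 in batch 2. All HIF-1α libraries were above WT, by 4.08-fold in batch 1 (log2 2.03 ± 0.47, adjusted p = 0.00561) and 3.17-fold in batch 2 (1.66 ± 0.31, adjusted p = 3.49e-05). BTC was above every WT library in all batch 1 lines other than HIF-2α, the DNA-binding and dimerization mutants included, and 1 WT library held only 5 BTC reads. In batch 1 the call was lost without WT replicate 2 (adjusted p = 0.0276), WT replicate 3 (adjusted p = 0.0248) or HIF-1α replicate 2 (adjusted p = 0.0591). HBEGF had 3362, 2550 and 2469 in WT and 963, 1033 and 1773 with HIF-1α in batch 1, a 2.22-fold fall (log2 -1.15 ± 0.24, adjusted p = 0.00198). That call was lost without WT replicate 1 (adjusted p = 0.0193) or HIF-1α replicate 1 (adjusted p = 0.0221) or 2 (adjusted p = 0.0237), and in batch 2 HBEGF had a log2 difference of -0.35 ± 0.11 (adjusted p = 0.0168) with overlapping libraries.

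Compared directly, HIF-2α gave more TGFA and ERRFI1 and less AREG and EREG than HIF-1α in both batches. In batch 1, 4 of 9 genes were called (2.40% of all genes), and in batch 2, 5 of 9 (3.78%), BTC being the fifth and lower with HIF-2α (2.96-fold). TGFA was 3.32-fold (log2 1.73 ± 0.17, adjusted p = 5.76e-08) and 3.18-fold higher (1.67 ± 0.06, adjusted p = 6.11e-26), and ERRFI1 was 3.04-fold (1.60 ± 0.18, adjusted p = 7.36e-07) and 3.09-fold higher (1.63 ± 0.06, adjusted p = 8.87e-25). EREG was 2.36-fold lower in batch 1 (log2 -1.24 ± 0.19, adjusted p = 8.46e-05) and 5.30-fold lower in batch 2 (-2.41 ± 0.09, adjusted p = 5.86e-25). AREG was 2.05-fold lower in batch 1 (log2 -1.03 ± 0.22, adjusted p = 0.00328) and 5.16-fold lower in batch 2 (-2.37 ± 0.19, adjusted p = 1.06e-13). In batch 1 both ligands lost the call without HIF-1α replicate 3 (EREG log2 -0.96, AREG -0.80), and AREG also without HIF-2α replicate 1 (-0.82) or 3 (adjusted p = 0.0119). EGFR was higher with HIF-2α than with HIF-1α by 1.84-fold and 1.71-fold, under the fold threshold.

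The IDR exchange compared lines that differ in the structured domain, in the IDR or in both. Each combination was 1 line, so that domain, transgene level and line cannot be told apart. With the 4 L30 lines of batch 2 taken as a 2 by 2 design, the IDR of HIF-2α against that of HIF-1α called 4 of 9 genes (4.41% of all genes), TGFA and ERRFI1 higher and AREG and EREG lower. The structured domain of HIF-2α against that of HIF-1α called 0 of 9 by edgeR (1.04% of all genes). Of the 9 genes, 4 had an unadjusted p under 0.05 for the structured domain, and DESeq2 also called 0.

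TGFA had 30722, 30248 and 28705 normalized counts with HIF-2α/1α and 62714, 58003 and 48162 with HIF-1α/2α. The 4 lines did not overlap one another, in the order HIF-2α, HIF-1α/2α, HIF-2α/1α, HIF-1α. The IDR effect on TGFA was 2.45-fold (log2 1.29 ± 0.04, adjusted p = 5.67e-28) and the structured-domain effect 1.30-fold (0.38 ± 0.04, adjusted p = 1.67e-09), higher with HIF-2α in each case.

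ERRFI1 had 31819, 28561 and 30372 normalized counts with HIF-2α/1α, overlapping HIF-1α, and 94125, 82924 and 76189 with HIF-1α/2α, overlapping HIF-2α. Its IDR effect was 2.93-fold (log2 1.55 ± 0.04, adjusted p = 3.67e-30), and its structured-domain effect was log2 0.07 (95% interval -0.02 to 0.16). EGFR had 27217, 27603 and 24947 with HIF-2α/1α and 56753, 52859 and 42516 with HIF-1α/2α. All libraries with the IDR of HIF-2α were above all those with the IDR of HIF-1α for both genes. For EGFR the IDR effect was 1.80-fold (log2 0.85 ± 0.04, adjusted p = 5.83e-21), under the fold threshold, and the structured-domain effect was log2 -0.08 (95% interval -0.17 to 0.01).

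EREG had 9951, 10635 and 12034 normalized counts with HIF-2α/1α and 1076, 1000 and 996 with HIF-1α/2α. AREG had 496, 428 and 689 with HIF-2α/1α and 48.9, 69.0 and 45.6 with HIF-1α/2α. For both ligands the HIF-2α/1α libraries overlapped those of HIF-1α, and the HIF-1α/2α line was lowest, without overlap with HIF-2α for EREG. The IDR effect lowered EREG 7.50-fold (log2 -2.91 ± 0.07, adjusted p = 9.38e-34) and AREG 7.16-fold (-2.84 ± 0.14, adjusted p = 2.70e-21). The structured-domain effect on EREG was log2 0.50 ± 0.06 (adjusted p = 5.90e-08) and that on AREG 0.47 ± 0.14 (adjusted p = 0.0171), so that of the 2 only EREG passed the adjusted p, with a change under the fold threshold.

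For EREG the IDR effect depended on the structured domain it was joined to. It was log2 -2.39 on the domain of HIF-2α and -3.42 on that of HIF-1α, a difference of 1.03 ± 0.13 (adjusted p = 8.92e-08), and EREG was the 1 gene of 9 called for this interaction (1.18% of all genes). The call was lost, at log2 0.83 to 0.98, without HIF-1α replicate 3, HIF-2α/1α replicate 1 or HIF-2α replicate 3. TGFA (0.45 ± 0.08, adjusted p = 0.000188) and EGFR (0.39 ± 0.09, adjusted p = 0.00134) passed the adjusted p for the interaction with differences under the fold threshold. AREG had a difference of 0.57 (95% interval -0.02 to 1.15). Transgene RNA moved with these contrasts, since EPAS1, which takes the reads of the HIF-2α portion, had 51430 ± 3088 normalized counts in the HIF-1α/2α line and 42541 ± 320 in the HIF-2α line. It had 20745 ± 1262 in the line of the other chimera and 16360 ± 1137 in that of HIF-1α, and its part in the results was not tested.

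Against WT, 5 of 9 genes were called in the HIF-1α/2α line (7.78% of all genes), the same genes in the same directions as with HIF-2α, and 1 of 9, EREG, in the HIF-2α/1α line (3.49%). The comparisons share their WT libraries, as do all those with WT within a batch. EREG fell 21.9-fold with HIF-1α/2α (log2 -4.45 ± 0.10, adjusted p = 4.06e-34) and AREG 17.7-fold (-4.14 ± 0.20, adjusted p = 1.62e-21), while TGFA rose 3.65-fold (1.87 ± 0.06, adjusted p = 3.90e-28). With HIF-2α/1α, EREG fell 2.06-fold (-1.05 ± 0.09, adjusted p = 2.23e-13), a call lost without WT replicate 2 (-0.98) or HIF-2α/1α replicate 1 (-0.99), and TGFA rose 1.94-fold (0.96 ± 0.06, adjusted p = 2.80e-17), just under the fold threshold.

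**Figure D2:**
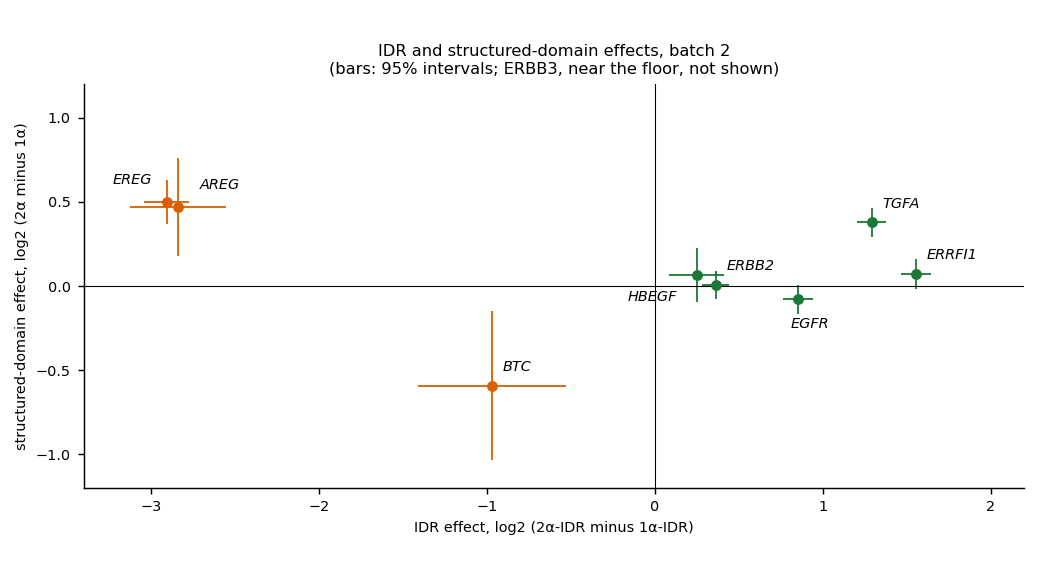
Log2 effect of the IDR (x axis, 2α-IDR minus 1α-IDR) against log2 effect of the structured domain (y axis, 2α minus 1α) for 8 genes, each point with 95% intervals from the edgeR fit to batch 2; orange marks IDR effects below 0 and green those above. The genes spread from -2.91 (EREG) to 1.55 (ERRFI1) along the IDR axis and stay between -0.59 (BTC) and 0.50 (EREG) along the other.

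The mutants of batch 1 tested whether these changes needed DNA binding and dimerization. HIF-2α R27E called 0 of 9 genes against WT by edgeR (0.496% of all genes), with 2 genes at an unadjusted p under 0.05 and 0 called by DESeq2. HIF-2αDM called 0 of 9 (0.474%), with 5 genes at an unadjusted p under 0.05 and 0 called by DESeq2. Against R27E (3.63% of all genes called) and against HIF-2αDM (3.96%), HIF-2α called the same 5 of 9 genes as against WT, in the same directions, and all 3 comparisons share the HIF-2α libraries. TGFA with HIF-2α was 4.23-fold above R27E (log2 2.08 ± 0.17, adjusted p = 1.49e-09) and 4.68-fold above HIF-2αDM (2.23 ± 0.17, adjusted p = 3.35e-10). EREG was 4.26-fold below R27E (-2.09 ± 0.20, adjusted p = 1.93e-08) and 5.83-fold below HIF-2αDM (-2.54 ± 0.20, adjusted p = 6.18e-10), and AREG was 5.71-fold (-2.51 ± 0.22, adjusted p = 7.32e-09) and 8.25-fold below them (-3.04 ± 0.23, adjusted p = 2.61e-10). AREG itself lay above every WT library in both dimerization mutants, though not called. It had 926 ± 78.9 normalized counts with HIF-2αDM and 819 ± 59.2 with HIF-1αDM, against 573 ± 30.0 in WT. Differences from these lines in AREG are therefore larger than those from WT.

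TGFA in the mutant lines was not at the WT level in every library. It had 12801, 16000 and 12718 normalized counts with HIF-2α R27E, 11258, 14074 and 12172 with HIF-2αDM, 11212, 10966 and 10912 with HIF-1α R30E and 13813, 17981 and 13347 with HIF-1αDM. All 12 libraries were above the highest WT library. None of the 4 differences passed the adjusted p, with log2 values of 0.54, 0.40, 0.22 and 0.66. EGFR in R30E did pass it, 1.61-fold above WT (log2 0.68 ± 0.16, adjusted p = 0.00591). All EGFR libraries of the mutant lines and of both KIN clones were above every WT library, with group means 1.19-fold to 1.61-fold of WT. EGFR with HIF-1α was not called against R30E (log2 0.23) or HIF-1αDM (0.48). For HIF-1α the difference from HIF-1αDM in TGFA was log2 0.23 ± 0.16 (adjusted p = 0.657), with overlapping libraries.

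HIF-1αDM called 0 of 9 genes against WT (0.457% of all genes), with 5 at an unadjusted p under 0.05. DESeq2 called 1, BTC, which edgeR called too once the replicate number was a block (BTC log2 1.98 ± 0.47 without the block, adjusted p = 0.0329). HIF-1α against HIF-1αDM called 2 of 9 (1.37% of all genes), AREG 3.57-fold lower (log2 -1.83 ± 0.21, adjusted p = 2.00e-06) and EREG 2.31-fold lower (-1.21 ± 0.19, adjusted p = 0.000168). In HIF-1α R30E, BTC was called with the replicate block but not without it (adjusted p = 0.0171), and edgeR without the block called 1 of 9 against WT (2.61%), ERRFI1, at 3726, 3854 and 3860 normalized counts, below every other library of batch 1 and 2.14-fold under WT (log2 -1.09 ± 0.18, adjusted p = 0.000139). Without WT replicate 1 this log2 difference was -0.99, under the fold threshold. HIF-1α against R30E called 3 of 9 (1.75%): ERRFI1 was 2.37-fold higher (1.24 ± 0.18, adjusted p = 3.40e-05), AREG 2.54-fold lower (-1.34 ± 0.21, adjusted p = 0.000131) and HBEGF 2.21-fold lower (-1.15 ± 0.24, adjusted p = 0.00394). The HBEGF call was lost without HIF-1α replicate 1 (adjusted p = 0.0472) or 2 (adjusted p = 0.0437), or R30E replicate 1 (adjusted p = 0.0479). EREG in R30E, at 6841, 5371 and 6466, lay below WT and had a log2 difference from HIF-1α of -0.41 ± 0.19 (adjusted p = 0.334).

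The KIN clones, which carry no transgene, also differed from WT. HIF-1β KIN called 1 of 9 genes (1.38% of all genes), AREG, which was 2.42-fold higher (log2 1.27 ± 0.21, adjusted p = 0.000262), and EREG there had 21593, 18242 and 17434 normalized counts, above all other libraries of batch 1 (0.93 ± 0.19, adjusted p = 0.00364, under the fold threshold). BTC in HIF-1β KIN had an adjusted p of 0.0311 (log2 1.79 ± 0.47), and it was called with the replicate block. HIF-2α KIN called 4 of 9 (4.14%), AREG, BTC and ERBB2 higher and HBEGF lower. TGFA in HIF-2α KIN had 6311, 6013 and 5281, the lowest group of batch 1 and below every WT library, as was EPAS1, with a log2 difference of -0.69 ± 0.16 (adjusted p = 0.00470), under the fold threshold.

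AREG in HIF-2α KIN had 986, 1228 and 1588 normalized counts, 2.21-fold above WT (log2 1.15 ± 0.21, adjusted p = 0.000338), whereas its neighbour EREG had 9261, 11906 and 12758, overlapping WT (0.17 ± 0.19, adjusted p = 0.662). Without HIF-2α KIN replicate 3 the AREG difference was 0.95, under the fold threshold. HBEGF had 1388, 1198 and 924, below every WT library (log2 -1.26 ± 0.24, adjusted p = 0.000714), and BTC had 87.6, 92.8 and 109, above every WT library (2.34 ± 0.48, adjusted p = 0.00128). ERBB2 had 18229, 15628 and 15999, the highest of batch 1 and 2.14-fold above WT (1.10 ± 0.19, adjusted p = 0.000168). The median log2 change of all 1391 genes tested on chromosome 17, where ERBB2 lies, was 0.42 in this clone and 0.20 in HIF-1β KIN, against -0.04 and -0.03 over all genes, and its part in the ERBB2 difference was not tested.

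**Figure D3:**
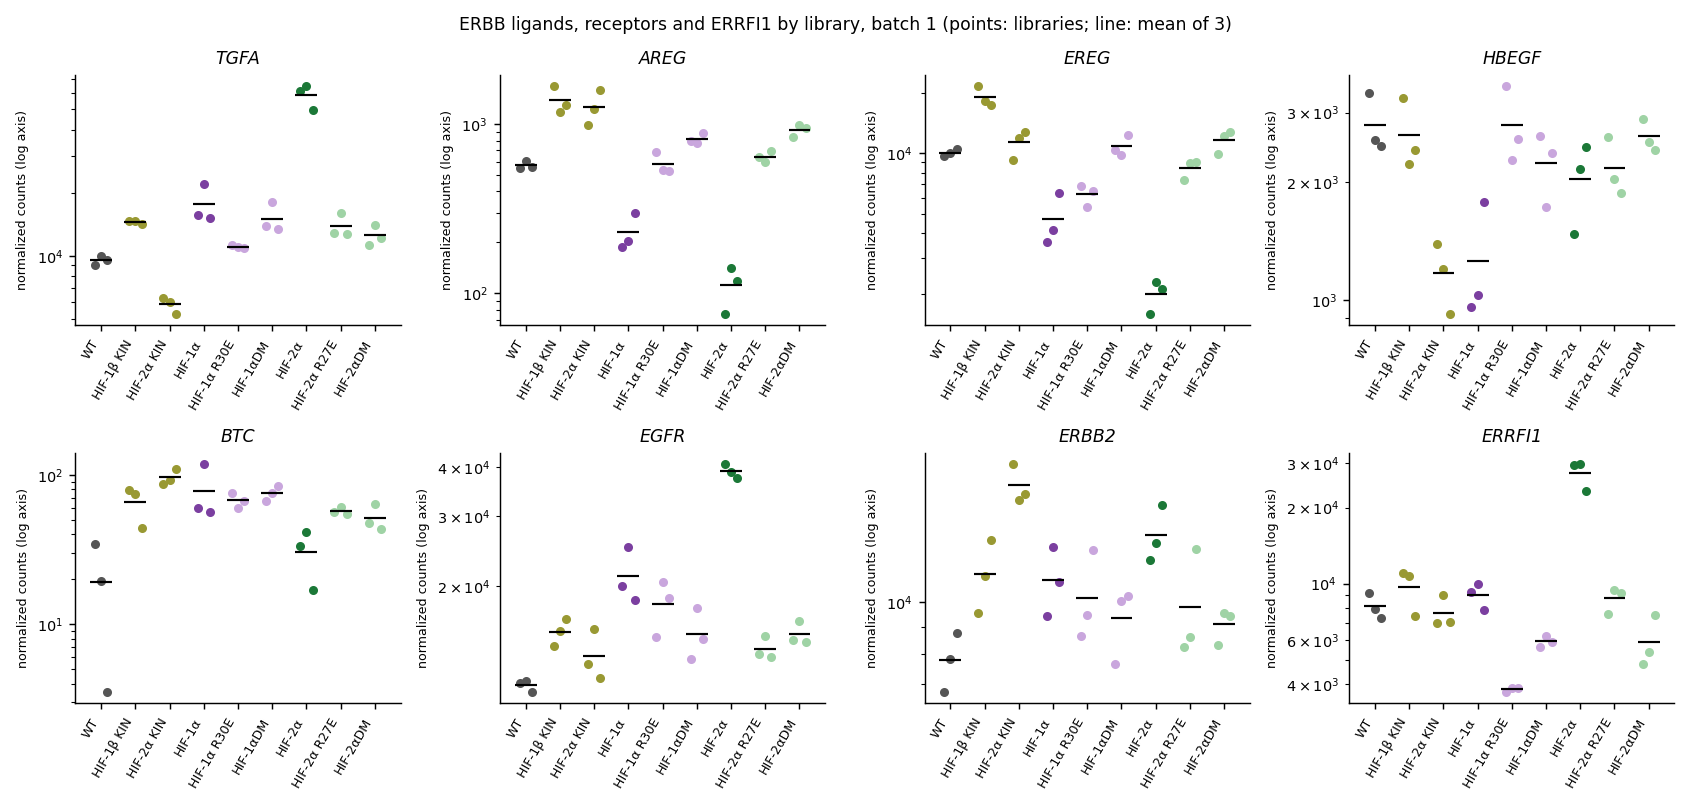
Normalized counts (log axis, range set for each gene) of the same 8 genes in each batch 1 library, 3 points and their mean per group. The HIF-2α line stood apart for TGFA, EGFR and ERRFI1. The mutants of either protein lay closer to WT for these genes, but every mutant line had TGFA, EGFR and BTC above all WT libraries. ERRFI1 in HIF-1α R30E and TGFA in HIF-2α KIN were the lowest groups.

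**Figure D4:**
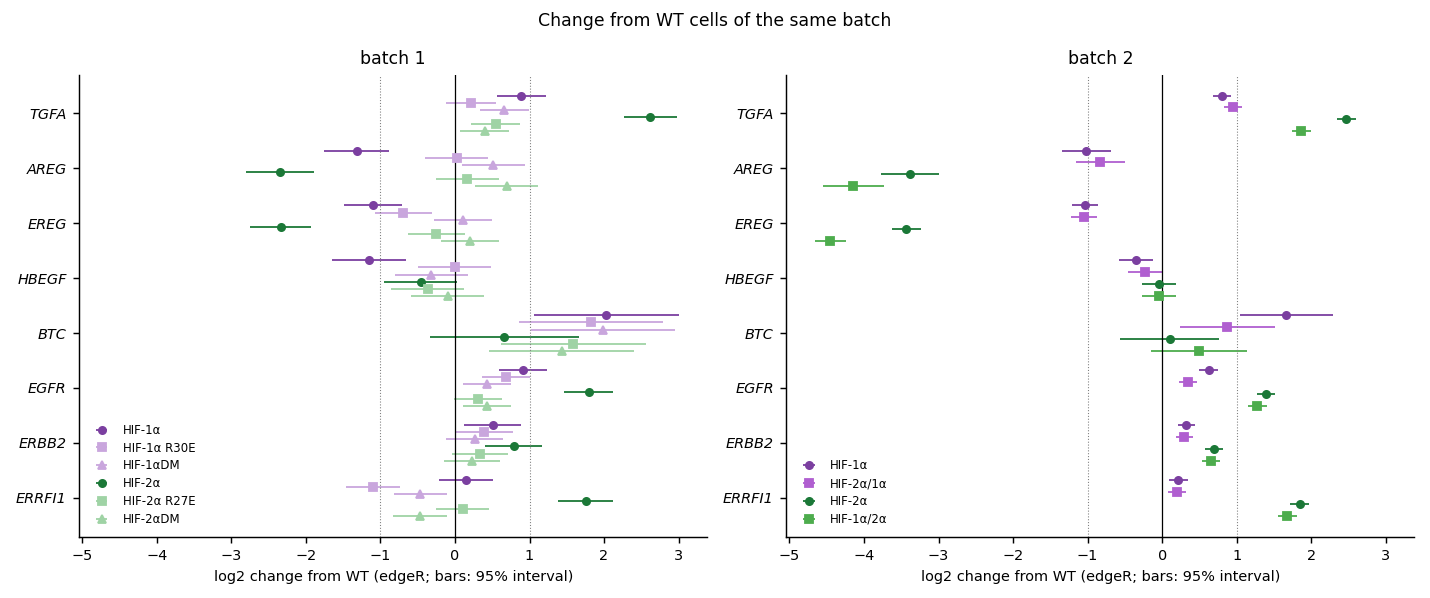
Log2 change from WT of the same batch (x axis) for 8 genes, with 95% intervals from the edgeR fits, in the 6 L30 lines of batch 1 (left) and the 4 of batch 2 (right). Dotted lines mark the fold threshold of 2; EREG and AREG reach -2.34 and -2.35 with HIF-2α in batch 1 and -4.45 and -4.14 with HIF-1α/2α in batch 2.

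The response to HIF-2α was compared between batches in 1 fit to the 18 libraries of the groups that both batches hold (WT and the lines with either unmodified protein). For HIF-2α, 0 of 9 genes were called by edgeR (0% of all genes), with 3 at an unadjusted p under 0.05 and 0 called by DESeq2. EREG fell further in batch 2 by log2 1.24 ± 0.25 (value -1.24, adjusted p = 0.0703) and AREG by 1.17 ± 0.36 (value -1.17, adjusted p = 0.220), while TGFA differed by -0.29 (95% interval -0.67 to 0.09). With the replicate block EREG (log2 -1.24) and AREG (-1.18) were both called, as were 100 genes higher and 57 lower of the 26763 tested. For HIF-1α, 0 of 9 were called by edgeR (0.00374% of all genes), with 2 at an unadjusted p under 0.05 and 0 by DESeq2. The 1 gene called by edgeR was HIF1A itself (log2 1.68 ± 0.23, adjusted p = 0.00634). HIF1A had 3038 ± 233 normalized counts with HIF-1α against 242 ± 13.5 in WT in batch 1. In batch 2 it had 13161 ± 494 against 293 ± 28.1, and its part in the batch comparison was not tested.

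Seen as a mixture, the 5 ligand transcripts changed from a shared pool to one dominated by TGFA. TGFA made up 38.8% ± 2.05 (SD, n = 3) of the summed ligand RPKM in WT cells of batch 1 and 91.4% ± 2.45 with HIF-2α, and 33.9% ± 2.74 and 89.7% ± 2.31 in batch 2. EREG went from 35.3% ± 1.65 to 2.70% ± 0.571 in batch 1, and from 42.3% ± 3.48 to 1.89% ± 0.494 in batch 2. The sum of the 5 ligands rose from 74.2 ± 0.648 to 194 RPKM in batch 1, and from 103 to 216 in batch 2. With HIF-1α the sum was 74.4 in batch 1 and 100 in batch 2, close to WT, while the TGFA share was 71.6% ± 8.56 and 60.9% ± 3.92. HIF-1α/2α had a TGFA share of 86.3% ± 3.28 and HIF-2α/1α one of 62.7% ± 3.99.

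The ratio of TGFA to EREG, per length, shows the same exchange within each library. It lay between 1.05 and 1.17 in WT libraries of batch 1 and between 27.5 and 44.7 with HIF-2α, and between 0.722 and 0.968 in WT and 35.4 and 57.0 with HIF-2α in batch 2. The HIF-1α/2α libraries reached 56.2 to 67.7, and the HIF-1α libraries 2.79 to 6.14 in batch 1 and 2.53 to 3.05 in batch 2. In HIF-2α KIN the ratio was 0.481 to 0.792, below WT, and in the 4 mutant lines group means ran from 1.26 to 2.08.

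**Figure D5:**
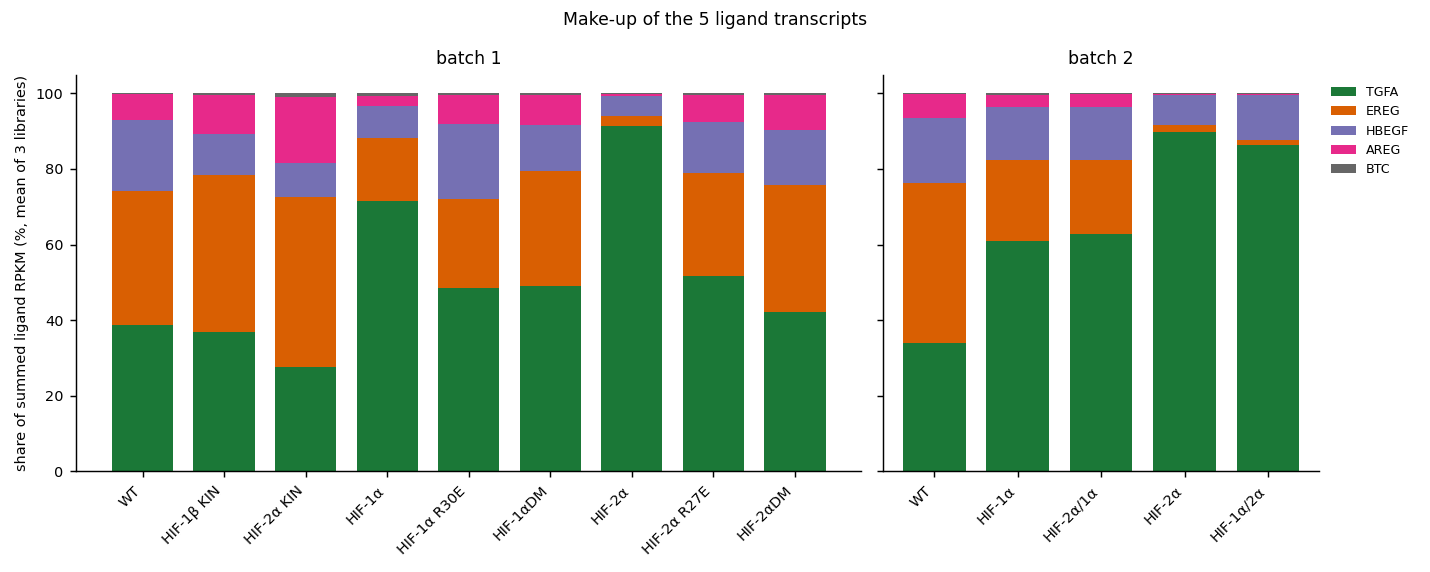
Share of each ligand in the summed RPKM of TGFA, EREG, HBEGF, AREG and BTC (mean of 3 libraries, in percent) for each group of batch 1 (left) and batch 2 (right). In the HIF-2α line TGFA takes 91.4% and 89.7%, and for HIF-1α/2α 86.3%, against 38.8% and 33.9% in WT cells.

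ERBB3, the kinase-impaired receptor that pairs with ERBB2, was close to the detection floor, with 0 to 24 reads per library and 1 to 3 in WT and HIF-2α/1α cells of batch 2. It was called in no comparison, and its fitted differences, up to log2 2.18 against WT in HIF-1α R30E (adjusted p = 0.246), rest on so few reads that no direction is given. 

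Across libraries EREG and AREG followed each other closely. Pearson's r of their log2 CPM was 0.96 over the 27 libraries of batch 1 and 0.99 over the 15 of batch 2, which share groups and depth within a batch. TGFA and EREG had r = -0.72 and -0.90, and TGFA and EGFR r = 0.88 and 0.96. Rank correlations with TGFA were weaker, at -0.40 in batch 1 and -0.85 in batch 2 for EREG, and 0.70 and 0.87 for EGFR. Among the 12461 genes whose mean reached 50 normalized counts in each batch, those whose levels most resembled TGFA, by the smaller of the r values of the 2 batches, included LPCAT1 (0.94), SLC2A1 (0.93), LPCAT2 (0.93) and CHST2 (0.92). LPCAT1 and LPCAT2 encode lysophosphatidylcholine acyltransferases and SLC2A1 the glucose transporter GLUT1. Of the 5 genes with the highest value, 3 were also among the top 5 by rank correlation. EGFR ranked 34 and ERRFI1 270 among those genes, and AREG and EREG lay near the other end, at 11865 and 11834.

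SLC2A1 had 98366 ± 1359 (SD, n = 3) normalized counts in WT cells of batch 2, against 283782 ± 13559 in the HIF-2α libraries and 243839 ± 8609 for HIF-1α/2α. Its lowest group means of batch 1 were in HIF-2α KIN, at 74514 ± 8178, and in HIF-1α R30E, at 76745 ± 11629. TGFA was also lowest in HIF-2α KIN but lay above WT in R30E. SLC2A1 was picked for its resemblance to TGFA in these same libraries, so the shared pattern is no separate evidence.

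Lists of genes around the receptor are read against the shares of all genes called with HIF-2α, 5.72% in batch 1 and 7.58% in batch 2. Of 8 genes that process the ligand precursors, such as ADAM17 and ADAM10, 0 were called with HIF-2α in batch 1 and 1 in batch 2, RHBDF1 (iRhom1, a partner of ADAM17), 2.04-fold higher. Of 19 genes that relay the signal, such as GRB2 and SOS1, only MAPK3 (ERK1) was called with HIF-2α, 2.16-fold higher in batch 1 (log2 1.11 ± 0.16, adjusted p = 8.91e-06) and 2.33-fold in batch 2 (1.22 ± 0.07, adjusted p = 3.35e-19). The median log2 change of the relay genes was 0.04 in batch 1 and -0.02 in batch 2, near the median of all genes.

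Among 11 negative regulators, 2 rose and 1 fell with HIF-2α in each batch, SPRY1 and LRIG1 higher and SPRED2 lower. In batch 1 SPRY1 was near the floor, at 0.744 ± 0.706 normalized counts in WT and 9.54 ± 4.25 with HIF-2α. The mutant lines had SPRY1 group means of 4.57 to 9.86 and HIF-2α KIN had 13.9 ± 4.18, so that this rise was not particular to HIF-2α. LRIG1, which promotes degradation of ERBB receptors, rose 4.34-fold in batch 1 (log2 2.12 ± 0.23, adjusted p = 1.99e-07) and 3.33-fold in batch 2 (1.74 ± 0.10, adjusted p = 6.34e-19), and it reached 2628 ± 127 normalized counts with HIF-1α/2α, from 285 ± 35.6 in WT. LRIG1 was also called higher with HIF-1α (2.79-fold in batch 1 and 2.31-fold in batch 2), in HIF-1β KIN (2.45-fold) and in HIF-2α KIN (2.16-fold), where EPAS1 and TGFA were below WT. It was called lower in HIF-1α R30E (log2 -1.01 ± 0.23, adjusted p = 0.00643), at 106 ± 39.9 normalized counts against 215 ± 24.6 in WT. The other mutant lines were about as low but not called, at 99.2 ± 13.7 (HIF-1αDM), 115 ± 28.3 (HIF-2α R27E) and 121 ± 20.1 (HIF-2αDM). SPRED2, an inhibitor of RAS-MAPK signalling, had log2 changes of -1.14 ± 0.19 (adjusted p = 8.12e-05) and -1.33 ± 0.07 (adjusted p = 9.42e-20). SPRY1, another inhibitor of that pathway, was far higher in the lines with the IDR of HIF-1α, going in batch 2 from 4.85 ± 1.71 normalized counts in WT to 398 ± 6.48 in the HIF-1α line and 235 ± 15.3 in that of HIF-2α/1α. The lines with the IDR of HIF-2α had 20.3 ± 4.49 (HIF-2α) and 19.1 ± 8.89 (HIF-1α/2α). Its IDR effect was log2 -3.92 ± 0.17 (adjusted p = 3.85e-23).

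Of 10 genes used as a readout of MAPK activity, 2 were higher and 0 lower with HIF-2α in batch 1 (CCND1 and DUSP4), and 3 were higher and 0 lower in batch 2 (CCND1, SPRY4 and EPHA4). The median log2 change of the 10 was 0.10 in batch 1 and 0.15 in batch 2. CCND1, which encodes cyclin D1, rose 3.14-fold (log2 1.65 ± 0.22, adjusted p = 3.51e-06) and 2.74-fold (1.45 ± 0.05, adjusted p = 2.17e-28), and its IDR effect was 2.43-fold (1.28 ± 0.03, adjusted p = 4.16e-32). EPHA4 and SPRY4 had IDR effects in the other direction, log2 -1.19 ± 0.07 (adjusted p = 3.27e-19) and -1.11 ± 0.20 (adjusted p = 1.29e-05). With HIF-1α in batch 2, EPHA4 rose 3.58-fold and SPRY4 4.21-fold. In HIF-2α KIN CCND1 was lower than WT (log2 -1.29 ± 0.22, adjusted p = 0.000139), as were ETV5 (-1.32 ± 0.22, adjusted p = 0.000115) and SPRY4, while EPHA4 was 3.84-fold higher (1.94 ± 0.36, adjusted p = 0.000469). DUSP4 rose with HIF-2α in batch 1 only by both thresholds, and it was also higher in HIF-1α R30E (1.58 ± 0.32, adjusted p = 0.00163), so this list did not move as one.

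Of 10 immediate early genes, 1 was higher with HIF-2α in batch 1 (JUN, 2.17-fold) and 2 in batch 2, among them EGR1 (4.42-fold, log2 2.14 ± 0.55, adjusted p = 0.00153), with 0 lower in either. Its HIF-2α libraries, at 219 to 939 normalized counts, overlapped the 32.3 to 277 of WT in batch 2. EGR1 was also higher with HIF-1α in both batches (4.86-fold and 8.47-fold) and in HIF-2α KIN (9.32-fold), lines that differ in the direction of TGFA. Of 7 further EGF-family genes (EGF, EPGN, NRG1, NRG2, NRG3, NRG4 and ERBB4), 4 passed the filter in batch 1 and 6 in batch 2. NRG2, a ligand of ERBB3 and ERBB4, was the 1 called against WT, higher in all 6 L30 lines of batch 1, by log2 1.64 ± 0.42 with HIF-2α, 1.96 ± 0.42 with HIF-1α and 2.14 to 3.40 in the 4 mutants. In batch 2 it was called in the HIF-1α line (log2 1.11 ± 0.29) and in both chimera lines, but not in the HIF-2α line, at group means of 33.4 to 95.1 normalized counts.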

How the data were processed

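Gene counts of 42 libraries were analysed, grouped by their labels. The authors deposited raw counts per gene: STAR had placed the reads on hg38, reads that mapped once were kept, and HTSeq counted them on GENCODE genes in union mode without strand. Synthetic spike-in RNA was added in batch 1 and is not used here. In R 4.3.3, edgeR 4.0.16 kept genes whose mean normalized count reached 0.5 (23410 in batch 1, 28724 in batch 2, 26763 in the joint fit), normalized by TMM, and fitted all groups of a batch in 1 quasi-likelihood model. A normalized count is a CPM scaled to the mean effective library size of its batch. A gene was called where its Benjamini-Hochberg adjusted p, over all genes tested, was not above 0.01 and it changed 2-fold or more, as in the methods of the study. SE is the log2 change divided by the square root of F. Log2 CPM used a prior count of 2.

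On simulated counts, HIF-2α against WT in batch 1 recovered 76% of genes changed by log2 1.5 and 98% of those changed by 3. For HIF-1α/2α in batch 2 these were 98% and 100%. The changed genes all had a mean of at least 50 normalized counts, and the libraries were drawn independently, without the pairing seen in batch 1. At 3 counts, a library's floor was 0.0274 to 0.0708 CPM. Replicates are biological according to the methods, but each group is 1 cell line. Same-numbered libraries of batch 1 deviated together (every pair's correlation over 0.1) in 10 of 13 comparisons, with a mean correlation of 0.26. In batch 2 this held in 0 of 5. The main tests did not use this pairing, and the replicate block, which does, was run only as an alternative. With the block, members called were 2 in HIF-1β KIN, 2 in R30E and 1 in HIF-1αDM, against 1, 1 and 0 without it. The named genes were the 9 members, and, from lists of pathway genes, up to 2 called genes in each direction whose mean reached 50 normalized counts. SPRY1, SPRY4, EPHA4 and DUSP4 are also given where they make up a count. The 9 genes and the lists were chosen with earlier results of these data known. Alternatives were DESeq2 1.42.0, no filter, no fold threshold, only the groups compared, a replicate block and each library left out. Leaving out all libraries numbered 3 of batch 1 was chosen after seeing the data. A few genes of the marker, pathway and TGFA-like lists are not reported here by name.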

Additional observations from a re-analysis of the deposited data

Results flagged for a closer look

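The effect of the IDR on EREG differed between the structured domains it was joined to. Exchanging the IDR of HIF-1α for that of HIF-2α changed EREG by log2 -2.39 on the domain of HIF-2α and by -3.42 on that of HIF-1α, and the interaction term of the edgeR fit was 1.03 ± 0.13 SE (adjusted p = 8.92e-08). EREG was lowest in the HIF-1α/2α line, at 996 to 1076 normalized counts in 3 of 3 libraries, below the 1772 to 2640 of HIF-2α. The value lies just past the fold threshold, and it fell under it without HIF-2α replicate 3 (0.83), HIF-2α/1α replicate 1 (0.97) or HIF-1α replicate 3 (0.98), with adjusted p from 8.52e-08 to 1.11e-06.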

How the results depend on the processing

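No called difference changed direction under any alternative or left-out library. Apart from single left-out libraries, 314 recomputed log2 values of called genes stayed past both thresholds and 5 did not. The exceptions were BTC in HIF-1α against WT of batch 1 (adjusted p = 0.0635), HBEGF in HIF-1α against R30E (adjusted p = 0.0134) and AREG in HIF-2α against HIF-1α of batch 1 (adjusted p = 0.0776), each with only the groups compared in the fit, and, without all libraries numbered 3, AREG in HIF-2α KIN (log2 0.95) and in HIF-2α against HIF-1α (-0.85). The cause was not tested.

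Counts of members called changed as follows. Without the fold threshold they moved by more than 1.5 times to 2 for HIF-1β KIN, 2 for R30E, 7 for HIF-1α of batch 2, 5 for HIF-2α/1α, 7 for the IDR effect, 2 for the structured-domain effect and 3 for the interaction. Smaller rises were to 5 for HIF-2α KIN, 6 for HIF-1α of batch 1, 6 for HIF-2α in either batch, 6 for HIF-1α/2α, and 5 and 7 for HIF-2α against HIF-1α in batches 1 and 2. DESeq2, no filter on low counts, and the replicate block each gave 2 for HIF-1β KIN, 2 for R30E and 1 for HIF-1αDM, BTC being the added gene. Without all libraries numbered 3 of batch 1, HIF-1β KIN had 2 (EREG added, log2 1.04), HIF-1α against WT 6 (TGFA and EGFR added), HIF-1α against HIF-1αDM 3 (HBEGF added), HIF-2α KIN 3 and HIF-2α against HIF-1α 3. With only the groups compared in the fit, HIF-1α against WT of batch 1 had 3, HIF-1α against R30E 2 and HIF-2α against HIF-1α of batch 1 had 3. For the difference between batches in the response to HIF-2α, no filter gave 1 and the replicate block gave 2. The block changed no other count of members called. In batch 2 the numbers paired nothing (mean correlation 0.00), and the block result there is only a check.

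With each library left out in turn, members called ranged from 1 to 2 for HIF-1β KIN, 3 to 4 for HIF-2α KIN, 2 to 5 for HIF-1α in batch 1, 1 to 1 for R30E, 0 to 1 for HIF-1αDM, 5 to 5 for HIF-2α in batch 1, 2 to 3 for HIF-1α against R30E, 2 to 3 against HIF-1αDM, 2 to 5 for HIF-2α against HIF-1α in batch 1, 1 to 3 for HIF-1α in batch 2, 0 to 2 for HIF-2α/1α, 4 to 5 for the IDR effect and 0 to 1 for the interaction. The other comparisons kept their count. Genes gained by leaving out 1 library were BTC in HIF-1β KIN, R30E and HIF-1αDM (each without WT replicate 1), EGFR in HIF-1α and HBEGF in HIF-1α against HIF-1αDM (without HIF-1α replicate 3), EGFR in HIF-2α against HIF-1α of batch 1 (without HIF-1α replicate 2), AREG and BTC in HIF-2α/1α (without its replicate 3 and without WT replicate 1) and BTC in the IDR effect (without HIF-1α/2α replicate 1, HIF-2α/1α replicate 1 or HIF-2α replicate 3). BTC and ERBB3 are limited by depth, at 5 to 129 and 0 to 24 reads per library.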
